A study of Mus musculus with 24 samples.

Results

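The genes described here encode the proteins of the mitochondrial ribosome that carry the symbols Mrpl (large subunit) and Mrps (small subunit), measured in the right ventricle of the mouse heart after surgery that loaded the ventricle with both pressure and volume (named PSPI in the labels) or after a sham operation. Members were all non-control array probes whose gene name was Mrpl or Mrps followed by a number and an optional letter. The rule found 101 probes of 76 genes among 55681 probes. A probe was kept if the scanner marked it as well above background on all arrays of 1 or more groups. This left 97 probes of 75 genes (46 Mrpl and 29 Mrps genes), out of 12348 genes tested. Mrpl21 was the gene with no kept probe, and the dropped probes of Mrpl41, Mrpl47 and Mrpl9 were second probes of genes that stayed. The rule used brightness and names, not differences between groups, but the set was chosen with earlier results of these data known. The probe that stood for each of the 75 genes was well above background on all 24 arrays, with none saturated.

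The mitochondrial ribosome translates the few messenger RNAs that mitochondrial DNA encodes, all of them for subunits of the respiratory chain and the ATP synthase. Its ribosomal RNAs come from mitochondrial DNA, but its proteins are encoded in the nucleus, made in the cytosol and imported, so assembling it needs both genomes. About the heart, which relies on oxidative phosphorylation, it is known that inherited defects of several of these proteins, among them MRPL3, MRPL44 and MRPS22, can cause cardiomyopathy in infancy.

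The arrays form 4 groups: sham (n = 10), PSPI month 1 (n = 5), PSPI month 2 (n = 5) and PSPI month 3 (n = 4). Each array held total RNA of a right ventricle labelled with 1 dye, Cy3, and every sample carried the strain label M/FVB/10-12, which the labels do not explain further. Sham samples carried no month, so whether any of them match a PSPI month in age is not given, and the 3 comparisons with sham share the same control arrays. Nothing in the labels ties a sample to an animal of its own. The series describes 4 to 5 control ventricles, whereas 10 samples are labelled sham, and whether some of these are repeat arrays of the same RNA is not given. If they are, n = 10 counts samples and not ventricles, and the standard errors and p-values of the comparisons with sham are too small. The p-values thus weigh differences against the sample-to-sample spread alone, part of which could be technical. In whole ventricle, fewer cells of a type and less RNA per cell cannot be told apart.

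Between 36.1% and 56.1% of all probes were well above background per array, the highest share being that of month 3 sample 4. The scanner files come from 3 slides. Slide 1 held 7 sham arrays and 1 month 1 array, slide 2 held 3 month 1, 4 month 2 and 1 month 3 array, and slide 3 held 3 sham, 1 month 1, 1 month 2 and 3 month 3 arrays. In 8 pairs of arrays of the same group, the median difference over the 200 most variable genes was under 0.2 on the log2 scale (0.088 to 0.188, against 0.243 for the next pair). These were the pairs among sham 3, 4 and 10, sham 1 with 5, sham 7 with 9, sample 1 with 5 in month 1 and again in month 2, and sample 2 with 3 in month 3. Counts below are therefore also given with these arrays averaged, which leaves 17 samples. Whether the close arrays of the PSPI groups are repeats of the same RNA is not given either. If they are, standard errors and p-values of comparisons between months are too small as well. Ventricular markers were well above background on all arrays. Their month 3 means on the log2 scale included 6.27 for Myl2, the ventricular light chain, and 1.09 for Ryr2, the lowest. Atrial markers varied widely among shams, and so did the ventricular marker Myh7 (1.62 to 5.91).

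At month 3, genes of the mitochondrial ribosome were lower than in sham across both subunits. Of 75 members, 49 (65.3%) passed the test as lower and 0 as higher, where 21.8% of all genes tested were called lower and 17.2% higher. A call here is a Benjamini-Hochberg adjusted p under 0.05 from limma, adjusted over all 12348 genes, and changes are differences of log2 signal scaled to the 75th percentile of each array. The median change of the 75 genes was -0.32, beside -0.04 for all genes tested. The median fall was 20.0% of the sham signal, and the largest was 40.9%. With the close arrays averaged, 35 of the same 49 genes were called (median -0.35, with 11.5% of all genes called lower), and without month 3 sample 4 the count was also 35 of the 49 (median -0.25, with 19.9% of all genes). With slide as a block, 48 members were called, 45 of them among the 49 (18.0% of all genes called lower). Within slide 3 alone, which holds 3 sham and 3 month 3 arrays, 11 were called (5.94% of all genes) and the median was -0.35.

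**Figure D1:**
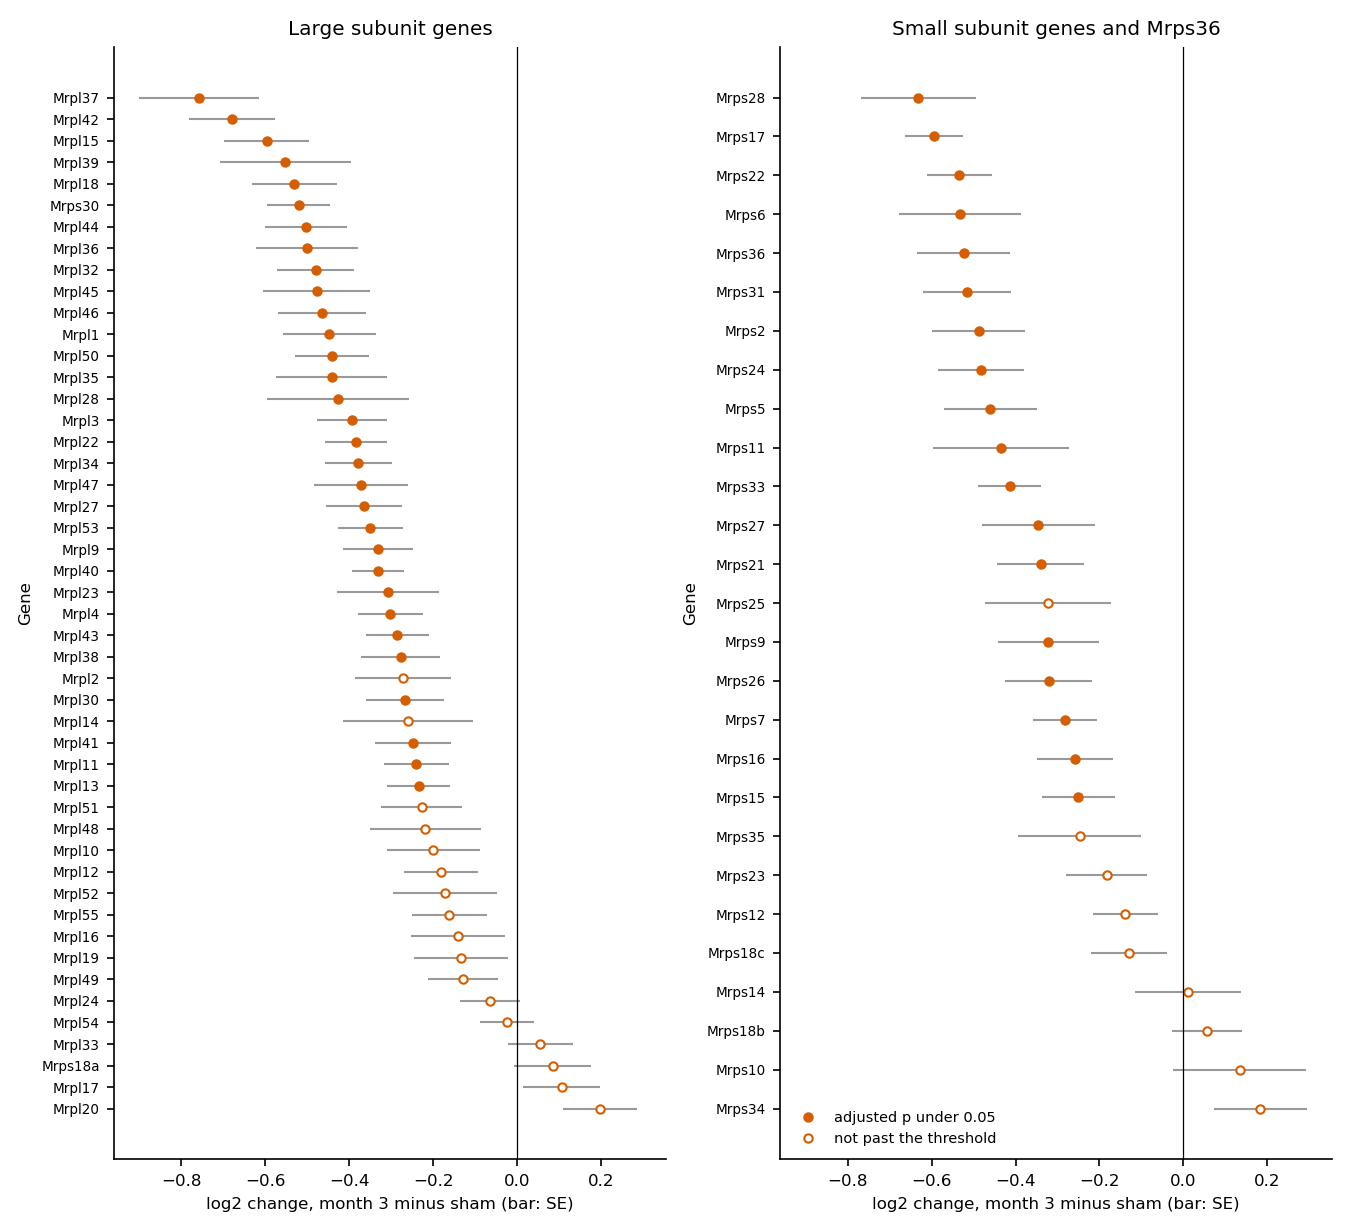
Change of each of the 75 mitochondrial ribosomal protein genes at month 3 against sham, as log2 difference on the x axis with its standard error as a bar, for the large subunit (left) and for the small subunit with Mrps36 (right); filled points passed the adjusted threshold and open points did not. The points run from -0.76 for Mrpl37 to 0.20 for Mrpl20, and every filled point lies below 0.

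The 2 subunits were alike in size of change. Of 48 large-subunit genes, 31 (64.6%) were called lower, with a median of -0.30, and of 26 small-subunit genes, 17 (65.4%), with a median of -0.32. Proteins inherited from the bacterial ancestor and proteins added only in mitochondria also gave like numbers. Among large-subunit genes, 18 of 29 with a bacterial counterpart fell (median -0.30), as did 13 of 19 without one (median -0.33). Among small-subunit genes, 12 of 16 with a bacterial counterpart fell (median -0.33), and 5 of 10 without one (median -0.32). The difference between these classes was not tested. Mrps36, whose protein was later assigned to the 2-oxoglutarate dehydrogenase complex and not to the ribosome, was at 1.10, 1.27, 1.28 and 0.90 at month 3, below all 10 shams (1.37 to 1.90), and fell by 0.52 on the log2 scale (SE 0.11, adjusted p = 0.000947).

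The largest fall was that of Mrpl37, a mitochondria-specific protein of the large subunit (probe on chromosome 4 between 106733238 and 106734539 of mm9, minus strand). Its log2 signal in sham was -1.78 at the lowest, -1.61 at the median and -1.41 at the highest. In month 3 samples 1 to 4 it was -1.89, -2.42, -2.24 and -2.88, and no array of the other 3 groups was as low. The month 3 mean of -2.36 ± 0.41 (SD, n = 4) stood against -1.60 ± 0.13 (SD, n = 10) in sham, a change of -0.76 (SE 0.14, adjusted p = 0.000318), or 0.591 of the sham signal.

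Mrpl42, another mitochondria-specific large-subunit protein (chr10:94963065-94963124 of mm9, minus strand), followed at -0.68 (SE 0.10, adjusted p = 3.3e-05). Sham arrays lay between 0.89 and 1.15 with a median of 1.06, month 1 arrays were at 0.74, 1.28, 1.19, 1.19 and 0.84, and month 2 arrays at 0.74, 1.03, 0.87, 1.03 and 0.96. The month 3 arrays were at 0.50, 0.41, 0.53 and -0.02. All 4 month 3 arrays were below the other 20, and the month 1 and month 2 arrays overlapped the shams.

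Mrpl15 and Mrpl39 were lower at month 3 as well. Mrpl15, a core large-subunit protein with a bacterial counterpart, was at 1.18, 0.63, 0.81 and 0.34 against a sham range of 1.20 to 1.47 (median 1.34). Sample 1 thus stood just under the lowest sham while sample 4 was far below it, and the mean change was -0.60 (SE 0.10, adjusted p = 0.000118). Mrpl39, mitochondria-specific and with a fold related to a tRNA synthetase, was at 1.06, 0.98, 0.82 and 0.48, all under the lowest sham (1.20, with a median of 1.37 and a highest value of 1.76). Its change was -0.55 (SE 0.16, adjusted p = 0.0081), and without month 3 sample 4 it no longer passed (-0.43, adjusted p = 0.0509). Month 1 sample 5 (0.95) and month 2 sample 5 (0.89) were as low for Mrpl39 as month 3 arrays.

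In the small subunit, Mrps28 fell most (chr3:8802222-8802281 of mm9, minus strand). Its month 3 arrays were at 1.81, 1.54, 1.66 and 1.34 against shams of 1.91 to 2.61 (median 2.22), and it changed by -0.63 (SE 0.14, adjusted p = 0.00113). All 4 lay below every sham, but month 1 sample 1, at 1.60, lay among them. Mrps17, which binds ribosomal RNA (chr5:130224174-130224233 of mm9, plus strand), also fell. Its month 3 arrays were at 0.37, 0.22, 0.14 and -0.03, while shams ranged from 0.67 to 0.89 (median 0.76) and the lowest month 1 or month 2 array was at 0.58. Mrps17 changed by -0.59 (SE 0.07, adjusted p = 2e-06).

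Mrps22, a mitochondria-specific small-subunit protein (chr9:98489251-98489310 of mm9, minus strand), was at -1.57, -1.59, -1.65 and -1.85 at month 3. Shams were between -1.27 and -0.93 with a median of -1.12, month 1 arrays between -1.30 and -0.96, and month 2 arrays between -1.35 and -1.14. Month 3 arrays were again the 4 lowest of 24, with a change of -0.53 (SE 0.08, adjusted p = 2.1e-05). Mrpl44, whose protein has an RNase III-like fold, was at -0.21, -0.43, -0.54 and -0.77 against shams of -0.11 to 0.18 and changed by -0.50 (SE 0.10, adjusted p = 0.000444). Month 2 sample 1 (-0.24) and month 1 sample 1 (-0.24) were slightly below the first of these month 3 arrays. Mrpl3, a core protein of the large subunit, was at 1.64, 1.37, 1.53 and 1.23 against shams of 1.70 to 2.00 and changed by -0.39 (SE 0.08, adjusted p = 0.000888).

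**Figure D2:**
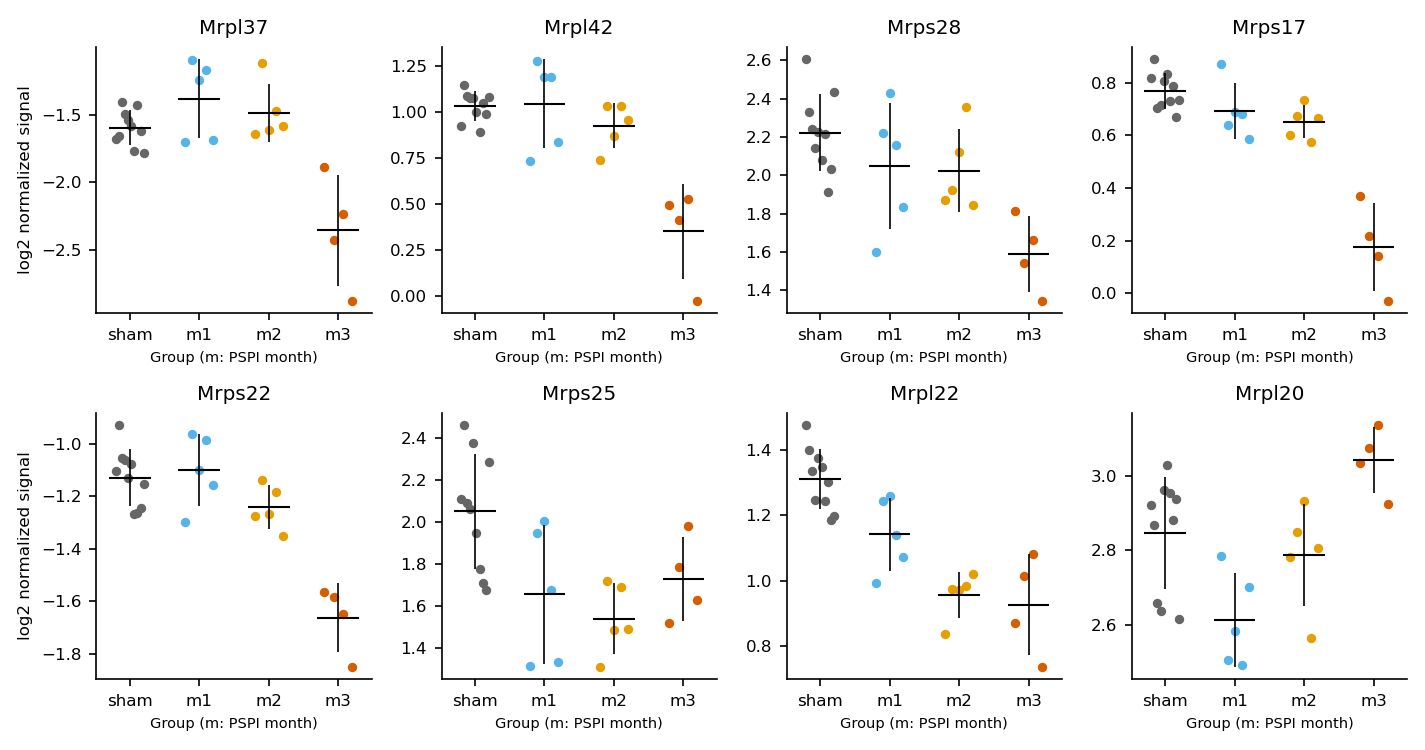
Log2 normalised signal (y axis) on each array for 8 genes by group (x axis: sham, and PSPI months as m1, m2 and m3), with 1 point per array, a horizontal line at the group mean and a vertical line for 1 SD. For Mrpl37, Mrpl42, Mrps17 and Mrps22 the 4 month 3 points lie below all others, Mrps25 and Mrpl22 are already lower at month 2, and Mrpl20 is lowest at month 1.

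Further members were read for their known role, whatever their values. Mrps30, which sits in the large subunit despite its name, was called at -0.52 (SE 0.07, adjusted p = 2e-05). Mrps5, which lies near the messenger RNA entry, was called at -0.46 (SE 0.11, adjusted p = 0.00261), although its first month 3 array (-2.90) was within the sham range of -2.91 to -2.40. Mrpl11 of the factor-binding region (-0.24, adjusted p = 0.0188), Mrps16 (-0.26, adjusted p = 0.0291), Mrpl41 (-0.25, adjusted p = 0.0358) and Mrpl13 (-0.23, adjusted p = 0.017) were called as well, but none of these 4 with the close arrays averaged (adjusted p = 0.0587, 0.0827, 0.129 and 0.149 in that order). Mrpl12, the stalk protein that also binds the mitochondrial RNA polymerase, had a change of -0.18 that did not pass (SE 0.09, adjusted p = 0.103). Mrps12, of the decoding region, had -0.14 (SE 0.08, adjusted p = 0.162).

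For 8 members the month 3 mean was at or above the sham mean, by 0.01 to 0.20, and none of them passed the test. They were Mrps14, Mrpl33, Mrps18b, Mrps18a, Mrpl17, Mrps10, Mrps34 and Mrpl20, named here after their values were seen. Their sign depended on the scaling: with the percentile taken over all probes, the median of all genes moved to -0.20 and 73 of 75 members had a change below 0. Relative to that shift, the member median of -0.48 was still lower than the median of all genes. Mrpl20, a large-subunit protein with a bacterial counterpart, was at 3.04, 3.08, 3.14 and 2.93 at month 3 against shams of 2.62 to 3.03, a difference of 0.20 that did not pass (SE 0.09, adjusted p = 0.0767). Limma's array weights, an alternative, called 4 of these 8 as higher, Mrps10 at 0.45, Mrps34 at 0.33, Mrpl20 at 0.28 and Mrps18a at 0.25, beside 45 members lower.

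Of the 22 members with a second kept probe, the probe pair had changes of the same sign at month 3 in 19 genes, both probes were called in 14, and in 0 were they called in opposite directions. The widest disagreement was that of Mrps14, also chosen after its values were seen: the brighter probe had a change of 0.01 and the dimmer one fell by 0.87 (adjusted p = 0.000746 in a fit of all kept probes). Mrps18b likewise had 0.06 on its brighter and -0.21 on its dimmer probe, neither of them called. Which of such probes reads the ribosomal transcript better was not tested.

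Month 3 arrays stood wholly apart from shams in a part of the members. In 23 of 75 members (30.7%) all 4 month 3 arrays were below all 10 shams, where 6.68% of all genes tested had this pattern. None had all month 3 arrays above all shams, against 5.69% of all genes. In 12 members (16.0%, against 2.45% of all genes) the month 3 arrays were the lowest 4 of all 24. Month 3 sample 4 was the lowest of 24 arrays for 47 members (62.7%, against 10.0% of all genes), and it is also the array with the highest share of probes above background. Whether the condition of that sample contributes to its low values was not tested, and the members' counts without it stand above.

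**Figure D3:**
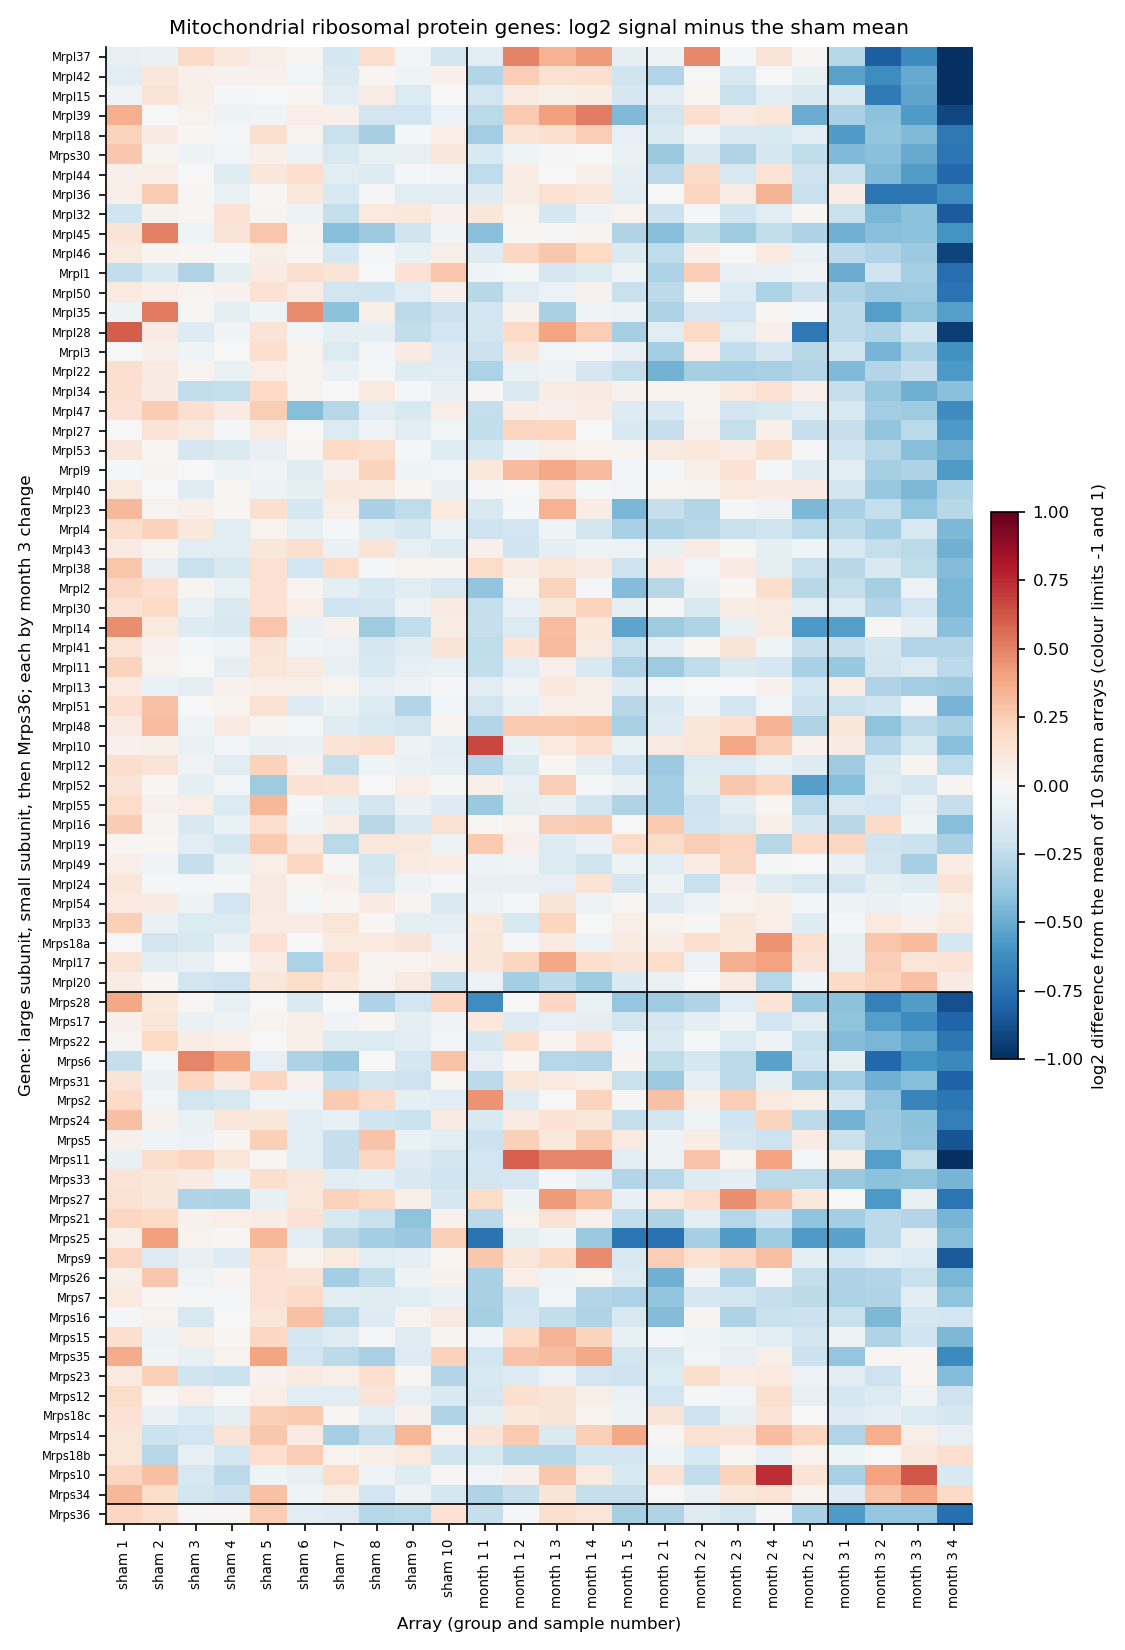
Log2 signal of the 75 genes (rows) on 24 arrays (columns), each minus the gene's mean over the 10 sham arrays, with blue for lower and red for higher signal and the colour limits at -1 and 1. Rows are large-subunit genes, small-subunit genes and Mrps36, each ordered by its month 3 change, and the 4 month 3 columns at the right are blue for most rows, most strongly sample 4.

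Summarised per array as the median of the 75 genes after centring each gene on its mean over the 24 arrays, the shams lay between -0.00 and 0.18 (median 0.06). Month 1 arrays lay between -0.08 and 0.15 and month 2 arrays between -0.10 and 0.06, and both overlapped the shams. The month 3 arrays were at -0.15, -0.24, -0.20 and -0.40, below the other 20 arrays. The Mrpl and Mrps genes taken apart gave nearly the same group means at month 3, -0.25 ± 0.11 (SD, n = 4) and -0.26 ± 0.12 (SD, n = 4). Because the genes were described with earlier results known, these scores carry no test.

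The same score separated no group for the nuclear subunits of the respiratory chain and the ATP synthase, the proteins that work beside the products of this ribosome. Their shams ranged from -0.27 to 0.48 and their month 3 arrays from -0.34 to 0.25. Of 80 such genes, 12 (15.0%) were called lower and 0 higher at month 3, with a median change of -0.08. The cytosolic ribosome, the machine of general translation, had 5 of 79 genes called lower and 2 higher, with a median of 0.00. Both shares of lower calls, 15.0% and 6.33%, were under the 21.8% of all genes, whereas the 65.3% of the mitochondrial ribosomal genes was above it. The difference between the lists was not tested.

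**Figure D4:**
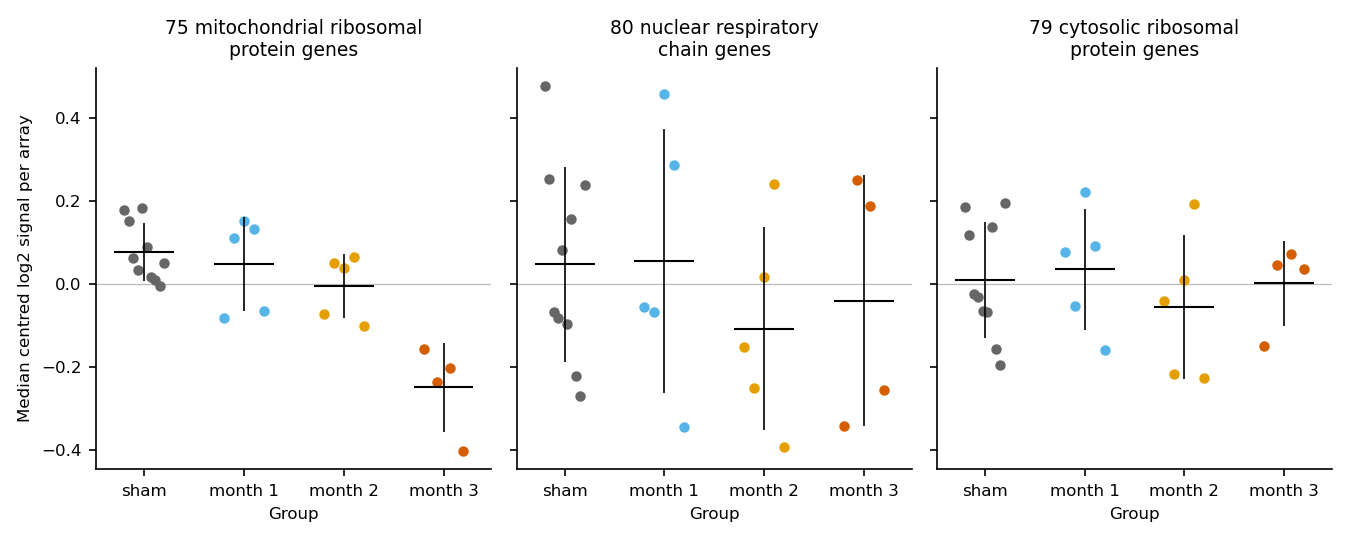
Median centred log2 signal per array (y axis) by group (x axis) for the 75 mitochondrial ribosomal protein genes, 80 nuclear respiratory chain genes and 79 cytosolic ribosomal protein genes, with 1 point per array, a horizontal line at the group mean and a vertical line for 1 SD. In the left panel the month 3 points, from -0.40 to -0.15, lie below all others, while in the other panels the groups overlap.

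The promoters of the members were read to see whether those that moved together share short sequence motifs. RefSeq promoter windows (GRCm38.p6, 250 bases before to 50 after each start) were found for 66 of the 75 genes. The motif of NRF1, the factor known for nuclear genes of mitochondria, was searched as GCGC, any NN and GCGC again, and that of the ETS family, to which GABP belongs, as CCGGAAG, each on both strands. The 140 bases just upstream of the start are shown for 6 genes, 4 of genes that fell and 2 of genes that did not, with the motif in capitals where one lies in the stretch; Mrpl17 and Mrps18a were chosen after their values were seen. Mrpl39 (chr16:84735245-84735384, minus strand) and Mrpl44 (chr1:79775878-79776017, plus strand) hold the NRF1 motif, Mrps22 (chr9:98601680-98601819, minus strand) the ETS motif and Mrpl37 (chr4:107066867-107067006, minus strand) neither. Of the genes with no fall, Mrpl17 (chr7:105811088-105811227, minus strand) holds the NRF1 motif and Mrps18a (chr17:46110864-46111003, plus strand) the ETS motif.
Mrpl39: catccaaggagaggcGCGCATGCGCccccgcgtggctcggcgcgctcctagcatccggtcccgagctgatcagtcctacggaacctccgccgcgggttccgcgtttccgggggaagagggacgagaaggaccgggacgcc
Mrpl44: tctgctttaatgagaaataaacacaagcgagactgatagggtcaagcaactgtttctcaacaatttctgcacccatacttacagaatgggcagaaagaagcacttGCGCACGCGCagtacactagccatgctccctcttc
Mrps22: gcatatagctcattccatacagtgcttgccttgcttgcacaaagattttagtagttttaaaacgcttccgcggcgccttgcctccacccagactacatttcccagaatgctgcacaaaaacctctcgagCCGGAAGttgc
Mrpl37: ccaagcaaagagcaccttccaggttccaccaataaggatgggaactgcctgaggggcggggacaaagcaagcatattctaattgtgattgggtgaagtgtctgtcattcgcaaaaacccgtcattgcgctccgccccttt
Mrpl17: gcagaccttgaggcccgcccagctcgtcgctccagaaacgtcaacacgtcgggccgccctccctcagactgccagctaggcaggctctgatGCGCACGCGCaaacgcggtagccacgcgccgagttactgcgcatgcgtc
Mrps18a: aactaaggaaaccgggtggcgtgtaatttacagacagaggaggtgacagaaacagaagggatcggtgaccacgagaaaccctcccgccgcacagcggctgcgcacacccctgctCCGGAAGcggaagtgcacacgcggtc

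Motifs were counted per gene, as a match in any of its windows, and 63 of the 66 members had 1 window. Genes with several windows had more room for a match. The NRF1 motif was present in 13 of the 66 members (19.7%), in 14.5% of genes tested that had a window and in 7.0% of all genes with a window. The ETS motif was present in 23 (34.8%), against 19.4% and 9.93%. AAGATGG, the core that YY1 binds, was present in 13 (19.7%), against 8.41% and 7.28%, while the E-box CACGTG (5 members, 7.58%), CCAAT (27 members, 40.9%) and the nuclear receptor motif AAGGTCA (4 members, 6.06%) stood at 11.7%, 42.3% and 3.92% of genes tested. Among the 44 members with a window that were called lower at month 3, 10 held the NRF1 motif and 13 the ETS motif, and among the 22 that were not, 3 and 10. The median month 3 change was -0.33 both with and without the NRF1 motif, and -0.29 with against -0.37 without the ETS motif. It was -0.43 with against -0.32 without the YY1 motif. For the E-box it was -0.27 against -0.33, for CCAAT -0.35 against -0.33 and for the nuclear receptor motif -0.30 against -0.33. Of the genes shown, Mrpl37, which fell, and Mrps18a, which did not, held the YY1 motif. It began 27 and 12 bases after the start, outside the stretches shown. These matches describe letters in a window and were not tested.

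At month 2, 7 of 75 members (9.33%) were called lower than sham and 0 higher, close to the background of 7.91% lower and 6.34% higher among all genes, and the median change was -0.08. With the close arrays averaged, 0 of the 75 were called, with 0.0081% of all genes called lower. With slide as a block, 7 members were called lower (5.44% of all genes), of which Mrpl22, Mrps25 and Mrps30 were among the first 7 and the other 4 were not. Slide 1, with 7 of the 10 shams, holds no month 2 array. With all arrays and no block, 18 members (24.0%) had an unadjusted p under 0.05, below the 30.7% of all genes. The lowest of the 7 was Mrps25, a mitochondria-specific small-subunit protein (chr6:92124834-92124893 of mm9, minus strand), at 1.31, 1.72, 1.48, 1.69 and 1.49 against shams of 1.68 to 2.46 (median 2.08). Of these arrays, 3 were below every sham and 2 overlapped them, and the change was -0.51 (SE 0.14, adjusted p = 0.0194). At month 3 Mrps25 stood at 1.52, 1.79, 1.98 and 1.63, a change of -0.32 that did not pass (SE 0.15, adjusted p = 0.0929).

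Mrpl22, a protein of the wall of the exit tunnel (chr11:57993002-57993061 of mm9, plus strand), separated the groups at month 2, with 0.84, 0.98, 0.97, 0.98 and 1.02 against shams of 1.19 to 1.47 (median 1.32). It changed by -0.35 (SE 0.07, adjusted p = 0.0038), and its month 3 arrays at 0.87, 1.02, 1.08 and 0.74 overlapped the month 2 arrays, with a change of -0.38 (SE 0.07, adjusted p = 0.000346). Mrpl4, also of the exit tunnel (-0.25, adjusted p = 0.0213), Mrps30 (-0.25, adjusted p = 0.0205), Mrps7 (-0.25, adjusted p = 0.0226) and Mrpl11 (-0.25, adjusted p = 0.026) were the other members of the 6 lowest. Mrpl22, Mrpl4 and Mrps7 were the 3 members (4.0%, against 1.82% of all genes) for which all 5 month 2 arrays were below all shams. None had all month 2 arrays above all shams, against 1.5% of all genes. Of the 7 genes lower at month 2, 6 were also lower at month 3, Mrps25 being the exception; these comparisons share their shams.

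At month 1 the limma fit called 0 of the 75 members and 0.0% of all genes. An unadjusted p under 0.05 was reached by 12 members (16.0%), beside 12.1% of all genes, and the median change was -0.02. In 0 members were all 5 month 1 arrays below (0.275% of all genes) or above (0.389%) all shams. The largest differences were in both directions, from -0.40 for Mrps25 (SE 0.14, adjusted p = 0.239) to 0.26 for Mrps11 (SE 0.15, adjusted p = 0.509). For Mrps11, a small-subunit platform protein, month 1 samples 2, 3 and 4 (-0.94, -1.05 and -1.05) were above the highest sham of -1.32 and samples 1 and 5 (-1.73 and -1.65) were not. Samples 1 and 5 are the close pair of this group, and the same split of samples showed in Mrpl37, Mrpl42 and Mrpl39. The log2 signal of Myh7, which encodes the slow (beta) myosin and is a marker of cardiac load in mice, was split alike, at 5.76 and 5.13 in samples 1 and 5 and at 2.49, 2.52 and 2.03 in samples 2, 3 and 4.

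Between months, members were called from month 2 to month 3 but not from month 1 to month 2, and the difference between these steps was not tested. The limma fit called 0 members between months 1 and 2, where 0.0162% of all genes were called either way and 4 members (5.33%) had an unadjusted p under 0.05, beside 12.8% of all genes. Same-numbered arrays of these 2 months deviated together, and with the numbers as a block in a fit of these 10 arrays, added after the data had been seen, 0 members were called (smallest adjusted p = 0.132), beside 0.502% of all genes. In that fit 9 members (12.0%) had an unadjusted p under 0.05, beside 23.6% of all genes. Between months 2 and 3, 24 members were lower and 0 higher, with a background of 9.82% lower and 8.82% higher and a member median of -0.24. This count came to 15 with close arrays averaged (background 3.72% lower), 8 with slide as a block (background 3.43%) and 11 without month 3 sample 4 (background 7.3%). Between months 1 and 3, 33 members (44.0%) were lower and 3 (4.0%) higher, with a background of 16.8% and 11.8%. The month 3 mean was the lowest of the 4 group means for 63 of 75 members (84.0%), beside 39.8% of all genes. For 49 members (65.3%) the changes from sham ran downwards from month 1 to month 2 to month 3, beside 28.4% of all genes.

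The 6 members lowest at month 3 relative to month 2 were Mrpl37 (-0.87, SE 0.16, adjusted p = 0.000713), Mrps2 (-0.64, adjusted p = 0.00126), Mrpl36 (-0.58, adjusted p = 0.00514), Mrpl42 (-0.57, adjusted p = 0.00147), Mrps27 (-0.57, adjusted p = 0.0109) and Mrps11 (-0.57, adjusted p = 0.0348). Mrps2, a small-subunit protein with a bacterial counterpart, was at -1.25, -1.50, -1.30, -1.45 and -1.49 at month 2 and at -1.72, -1.94, -2.21 and -2.27 at month 3. These month 2 and month 3 values did not overlap, while the first month 3 array lay inside the sham range of -1.73 to -1.28. Mrpl36, a small large-subunit protein with a bacterial counterpart, was at 0.37, 0.37 and 0.48 in month 3 samples 2 to 4 but at 1.17 in sample 1, which is within its sham range of 0.94 to 1.35. For Mrps27 and Mrps11 the step was not called without month 3 sample 4 (adjusted p = 0.0587 and 0.165). Dimmer members tended to fall more in this step. Spearman's correlation of change with mean signal was 0.53 over the members and -0.07 over all genes. Against sham it was -0.62 at month 1, -0.40 at month 2 and 0.26 at month 3 over the members (all genes -0.20, -0.12 and -0.14). The source of this relation was not tested.

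Against month 1, 3 members were higher at month 3. Mrpl20 was at 2.79, 2.51, 2.58, 2.49 and 2.70 at month 1, below all 4 month 3 arrays, and the difference was 0.43 (SE 0.10, adjusted p = 0.00286). Mrps34 was higher by 0.36 (SE 0.13, adjusted p = 0.0372) and Mrps18b by 0.28 (SE 0.10, adjusted p = 0.034). Neither of these last 2 was called with close arrays averaged (adjusted p = 0.175 and 0.0888), and for Mrps18b the mean of both kept probes gave -0.01. All 3 genes had month 1 means below sham that did not pass.

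With the 3 months taken as one average against sham, 25 members (33.3%) were lower and 0 higher, beside 13.6% lower and 10.7% higher among all genes, and 23 of the 25 were lower at month 3 as well. The 6 lowest were Mrps25 (-0.41, SE 0.11, adjusted p = 0.00816), Mrps28 (-0.33, adjusted p = 0.0152), Mrps6 (-0.31, adjusted p = 0.0288), Mrpl45 (-0.31, adjusted p = 0.016), Mrpl22 (-0.30, adjusted p = 0.000394) and Mrps30 (-0.28, adjusted p = 0.00109). Mrpl45 is the protein that anchors the ribosome to the inner membrane, and its shams spread widely, from -0.12 to 0.80. Averaging the close arrays left 6 of the 25 calls, where 2.72% of all genes were called lower.

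Genes that work with the ribosome were read from lists by role, with the same test. The background for every list at month 3 is 21.8% of all genes called lower and 17.2% called higher. List counts at month 3 come from the main fit, and an alternative is given only for mitochondrially encoded mRNAs. How far the other list counts depend on the alternatives used for the members is not shown. Of 7 further ribosomal proteins without an Mrpl or Mrps symbol on the array, 5 were lower at month 3 and 0 higher (median -0.24). Ptcd3, a small-subunit protein with RNA-binding repeats, fell by 0.45 (SE 0.08, adjusted p = 0.000364), and Mrpl58, a peptidyl-tRNA hydrolase built into the large subunit, by 0.27 (SE 0.10, adjusted p = 0.0407). Chchd1 (-0.24, adjusted p = 0.0171) and Aurkaip1 (-0.27, adjusted p = 0.019), both of the small subunit, were called too. Dap3, a GTP-binding small-subunit protein, had -0.15 and did not pass (SE 0.13, adjusted p = 0.395).

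Factors that build the ribosome or modify its RNA had 13 of 26 genes lower and 1 higher at month 3 (median -0.31). Rpusd4, a pseudouridine synthase of the large ribosomal RNA, had month 3 arrays between -2.54 and -1.96 and shams between -1.70 and -1.20, and fell by 0.84 (SE 0.10, adjusted p = 2e-06). Mrm1, a ribose methyltransferase of the same RNA, fell by 0.85 (SE 0.15, adjusted p = 0.000145), Trmt2b by 0.55 (adjusted p = 0.000139) and Ngrn by 0.48 (adjusted p = 0.000498). Mrm2, another ribose methyltransferase, chosen after its values were seen, fell by 0.99 (SE 0.16, adjusted p = 6.5e-05).

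Of 16 translation factors, 12 were lower and 1 higher (median -0.37). Gfm1, elongation factor G1, which moves the ribosome along the messenger, was between 1.40 and 1.90 at month 3 and between 2.19 and 2.45 in sham. It fell by 0.73 (SE 0.08, adjusted p = 1e-06), and its groups did not overlap. Mtrf1l, a release factor (-0.49, adjusted p = 0.00109), Pdf, the peptide deformylase (-0.50, adjusted p = 0.000405), and Lrpprc, which stabilises mitochondrial messengers (-0.39, adjusted p = 0.00259), were lower too. The 1 higher gene was Mtif2, initiation factor 2, named after its values were seen, at 2.30 to 3.52 against shams of 1.55 to 2.38, a rise of 1.16 (SE 0.19, adjusted p = 9.8e-05) with a slight overlap.

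The enzymes that charge mitochondrial tRNAs had 9 of 19 genes lower and 0 higher at month 3 (median -0.30), with Hars2 at -0.49 (SE 0.09, adjusted p = 0.00029), Iars2 at -0.38 (adjusted p = 0.00805), Lars2 at -0.36 (adjusted p = 0.000121) and Fars2 at -0.30 (adjusted p = 0.043). All 4 were also called at month 2, from -0.44 for Hars2 to -0.20 for Lars2. They were 4 of 19 genes (21.1%), beside 7.91% of all genes called lower at month 2. The 4 were named by their p over all months, which include month 2. With the close arrays averaged, 0.0081% of all genes were called lower at month 2. Of 21 genes of mitochondrial transcription, DNA maintenance and their nuclear regulators, 8 were lower and 0 higher (median -0.19). Tfam, which packages mitochondrial DNA and starts its transcription, was between -1.79 and -0.93 at month 3 and between -0.79 and -0.53 in sham, and fell by 0.84 (SE 0.10, adjusted p = 3e-06). Tefm, the transcription elongation factor, fell by 0.82 (SE 0.12, adjusted p = 3.8e-05), and Ssbp1, the single-strand DNA-binding protein, by 0.42 (adjusted p = 0.000354). Polg2, the accessory subunit of the mitochondrial DNA polymerase, fell by 0.49 (adjusted p = 0.00876), and Polrmt, the RNA polymerase, had -0.16 (SE 0.09, adjusted p = 0.149). Ppargc1a, the coactivator known for mitochondrial biogenesis and named after its values were seen, had 0.60 (SE 0.26, adjusted p = 0.07).

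**Figure D5:**
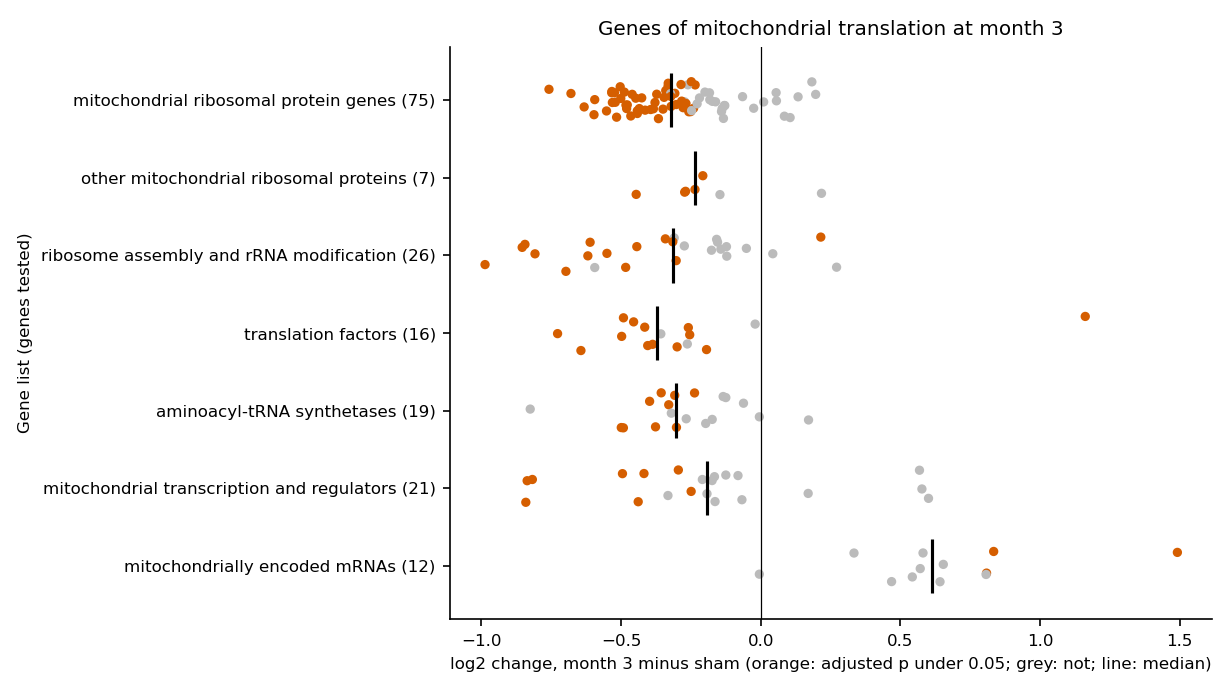
Log2 change at month 3 against sham (x axis) of each gene in the mitochondrial ribosomal protein set and in 6 lists of genes that work with it (rows), with orange points past the adjusted threshold, grey points not past it and a black line at the median of each list. Medians lie below 0 for every list shown except the mitochondrially encoded mRNAs, at 0.61.

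The messengers that this ribosome translates were read last. Of 12 mitochondrially encoded mRNAs tested, a list added after the data had been seen, 3 were higher at month 3 and 0 lower, with a median of 0.61. ND6 was between -2.36 and -0.89 against shams of -3.95 to -2.21, a rise of 1.49 (SE 0.31, adjusted p = 0.0009), while ND3 (0.83, adjusted p = 0.0428) and COX1 (0.81, adjusted p = 0.04) overlapped the shams. With the percentile taken over all probes, 1 of the 12 was called. The array files place 5 of these 12 probes on chromosome 1, which holds a near-identical nuclear copy, and 7 on the mitochondrial genome, so their signals are uncertain as to source.

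Markers of other cells were read beside these changes at month 3, where 17.2% of all genes were called higher and 21.8% lower. The 2 neutrophil markers tested were higher (S100a8 by 2.86 and S100a9 by 2.69), with mean centred log2 levels per array of -0.29 to 1.92 at month 3 and -3.88 to -0.31 in sham. Of macrophage markers 2 of 4, of endothelial markers 2 of 5, of fibroblast markers 1 of 5 and of smooth muscle markers 1 of 4 were higher, and 1 endothelial marker was lower. The 2 adipocyte markers were lower (Cfd by 2.52 and Adipoq by 1.87), with mean centred log2 levels per array of -2.82 to -1.30 against -2.34 to 2.67 in sham. Of 9 ventricular cardiomyocyte markers 1 was higher (Myh7 by 2.06, adjusted p = 0.0416) and 1 lower (Ryr2, by 0.78), with mean centred log2 levels per array of -0.12 to 0.78 against -0.49 to 0.43 in sham. None of 4 atrial markers was called, with mean centred log2 levels per array of -3.09 to -1.33 against -4.07 to 4.81. Myh7 varied widely among shams, at 1.62 to 2.16 in 6 of them and at 4.73, 5.91, 5.18 and 4.95 in sham 6, 7, 8 and 9, and the month 3 arrays (5.01 to 5.62) lay within the range of these 4. Month 2 arrays lay between 4.67 and 5.63. The members' score per array was 0.09, 0.02, 0.01 and -0.00 in sham 6, 7, 8 and 9, 0.03 to 0.18 in the other 6, and -0.40 to -0.15 at month 3. The part of the Myh7 level and of these cell types in the lower ribosomal genes was not tested.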

How the data were processed

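Right ventricular RNA was extracted with a QIAGEN column kit and 0.5 ug was labelled with Cy3, per the labels' protocols. Spots were quantified by Agilent Feature Extraction 10.7.3.1, per the submitters' processing notes, on probe positions of mm9, per the file headers. The authors deposited each array's processed signal intensity, already background-subtracted per the file headers, and a series table that equals the net signal intensity of the same spots for 62976 of 62976 spots per array. Its values showed no scaling between arrays. The number of arrays limits the precision.

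From the processed signal, log2 values minus each array's 75th percentile were taken, that percentile being over the 16966 probes the scanner marked as above background on each of 24 arrays. Of 55681 non-control probes, 21041 passed this mark on all arrays of 1 or more groups and were kept, and each gene was read from its brightest kept probe on average. A single limma 3.58.1 model (R 4.3.3) of the 4 group means was fitted to 12348 genes, with p-values adjusted by Benjamini-Hochberg over all of them and a threshold of 0.05. In simulated data of 12337 genes, 67, 67 and 66 genes were changed by 0.3, 0.5 and 1 on the log2 scale. The other genes were left unchanged. The month 3 comparison recovered 13.4%, 34.3% and 84.8% of the changed genes, in that order. In the data far more genes were called at month 3 (2120 higher and 2697 lower), so the adjusted threshold was stricter in the simulation. These shares are thus not the sensitivity of the month 3 test in the data. Alternatives covered scaling, background correction, the deposited series table as source, probe filters, probe choice, variance model, array weights, slide, replicate number, close arrays and each array left out.

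The members and gene lists were chosen with earlier results of these data known. Named were the 6 largest called rises and falls among members in each comparison, 13 members and Dap3, Polrmt and Tfam whatever their values, and up to 4 called genes of every other list by smallest p over all months; other genes are marked where they are named. Replicate numbers of the titles carry no stated pairing. Deviations of same-numbered arrays correlated above 0.1 in all 5 pairs of months 1 and 2 (0.19 to 0.53), which were therefore also fitted as pairs, and in 4 of the 22 pairs of other groups (-0.44 to 0.33). Month 1 sample 3, however, correlated more with month 2 sample 4 (0.42) than with month 2 sample 3 (0.19). Promoters came from RefSeq tables of GRCm38.p6, and probe positions from mm9 were not joined to them.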

Additional observations from a re-analysis of the deposited data

Results flagged for a closer look

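Single arrays stood apart within their group, by Dixon's criterion, in 7 of 128 groups of 4 to 10 arrays, where chance flags about 1 in 20 groups. The groups were those of the 31 members named by rule and of the members' median score per array. Mrps14, Mrpl33, Mrps18a, Mrpl17 and Mrps10, named above after their values were seen, were not looked at. The values are log2 normalised signals. In month 2 sample 1, Mrpl12 was low at 2.31 and Mrpl22 was low at 0.84. In month 3 sample 1, Mrpl13 was high at 1.90 and Mrpl36 was high at 1.17, both within their sham range while the other 3 month 3 arrays were below it. Mrpl39 was high in sham 1 at 1.76, Mrps34 was high in month 1 sample 3 at 2.40, and Mrps6 was low in month 2 sample 4 at 0.86.

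The change from sham differed between month 3 and month 2, by limma's test of that difference, for 24 members, of which the 6 with the largest differences are given. The differences on the log2 scale were -0.87 for Mrpl37, -0.57 for Mrpl42, -0.64 for Mrps2, -0.58 for Mrpl36, -0.57 for Mrps27 and -0.57 for Mrps11. The 4 month 3 arrays were all lower than the 5 month 2 arrays for Mrpl37, Mrpl42, Mrps2 and Mrps27, and not for Mrpl36 and Mrps11, in which month 3 sample 1 lay among the month 2 arrays. No cause was tested.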

How the results depend on the processing

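At month 3, members passed the test as higher than sham in 3 alternatives: Mrps10 (0.45), Mrps34 (0.33), Mrpl20 (0.28) and Mrps18a (0.25) with array weights, beside 45 lower, Mrpl20 (0.26) with the replicate block and Mrps34 (0.29) without month 3 sample 1, each beside 47 lower. Counts of members called, either way, moved by over 1.5 times as follows. Most stand here without the share of all genes called under the same alternative. They thus do not show whether members moved more than other genes. With close arrays averaged, the counts were 6 over all months (25 in the main fit), 0 at month 2 (7) and 15 for month 3 against month 2 (24). On slide 3 alone, which holds 1 array each of months 1 and 2 and leaves 4 residual degrees of freedom, limma called 11 members at month 3 (49, with 38 at an unadjusted p under 0.05) and 0 over all months (10 unadjusted), at month 2 (0 unadjusted), for month 3 against month 2 (10 unadjusted) and for month 3 against month 1 (36 in the main fit, 11 unadjusted). Array weights gave 1 at month 1 (0), 24 at month 2 and 11 for month 2 against month 1 (0). At month 2, no filter on dim probes gave 1 and the mean of kept probes 4. For month 3 against month 2, the percentile over all probes gave 38, normexp 15, the values as deposited for the series 15 and slide as a fixed block 8. Tested probe by probe, 40 of the members' 97 kept probes were called in that comparison, a count of probes; of the 75 probes that stand for the genes it was 26. The replicate block gave 12 at month 2, although same-numbered shams and month 2 arrays did not deviate together, and 48 at month 3; no other member count moved by over 1.5 times with it. In months 1 and 2 alone, an alternative chosen after seeing the data, the block called 0 members (9 at an unadjusted p under 0.05) and 62 of all genes, beside 2 without it. The causes were not tested.

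Leaving out each array in turn gave 20 to 30 members over all months, 0 to 0 at month 1, 1 to 10 at month 2 (1 without month 2 sample 1), 35 to 50 at month 3, 0 to 0 for month 2 against month 1, 11 to 30 for month 3 against month 2 and 27 to 41 for month 3 against month 1. Shares of all genes called in these fits are not set beside the ranges. The ranges thus describe the member counts only, not members relative to other genes. Of 46 results on single genes and comparisons, 1 reversed: Mrps18b at month 3 against month 1 was -0.012 (adjusted p = 0.947) with the mean of kept probes. Across the alternatives other than leaving out an array, 587 values kept their direction and their side of the threshold, 98 lost and 4 gained the call; with an array left out these were 1061, 42 and 1. The scaling moved the median month 3 change of all genes from -0.04 to -0.20 with the percentile over all probes (members -0.48, 65 lower), to -0.13 with quantile normalisation (members -0.36, 56 lower) and to 0.09 with normexp (members -0.28, 43 lower). All genes called higher and lower at month 3 were then 1307 and 4519, 1629 and 3843, and 2836 and 1641, beside 2120 and 2697 in the main fit. With 4 against 10 arrays, changes near 0.3 fell on both sides of the threshold at month 3. In the main fit Mrps25 at -0.32 was not called, whereas Mrps16 at -0.26 was.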
